A study of Elaeis guineensis with 15 samples.

Results

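The 4 transcripts described here encode enzymes that cut sugars from plant cell wall polysaccharides in the base of oil palm fruit. They are a beta-galactosidase similar to Arabidopsis BGAL4 (CL1Contig3577, locus LOC105040419), the beta-xylosidase EgBXL2 (CL1Contig2306, LOC105039922), the beta-glucosidase EgBGLC1 (CL1Contig8124, LOC105042425) and the endo-beta-mannanase EgMAN7 (CL1Contig20303, LOC105040138). They were chosen by contig name, and all 4 were present among the 51804 contigs of the count tables. Their domain annotations matched the names: glycoside hydrolase family 35 for the beta-galactosidase, family 3 for EgBXL2 and EgBGLC1, and family 5 for EgMAN7.

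The abscission zone (AZ) is the layer of cells at the fruit base where the fruit detaches. A set of 3 tissues was taken from fruit of a tenera clone grown in Krabi, Thailand: the AZ of ripe fruit at 150 days after pollination (AZ150), the adjacent pedicel of ripe fruit (P150) and the AZ of immature fruit at 30 days (AZ30). Spikelets were exposed to 10 µl per litre of ethylene for 3, 6 or 9 h, or were sampled untreated at 0 h, which gave 12 libraries with 1 library per tissue and time. A further 3 libraries came from the AZ of untreated fruit in the field at 30, 120 and 160 days, the last being the age of natural shedding. Each tissue sample was a pool of about 50 pieces, so a library holds no spread between palms or bunches, and an AZ piece also held neighbouring mesocarp or pedicel cells. Fewer cells of a type and less RNA per cell cannot be told apart in such pools. No untreated tissue was kept for 3, 6 or 9 h, so ethylene and the hours since harvest cannot be told apart.

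Glycosidases of the cell wall trim side chains or backbones of polysaccharides from their ends, and endo-acting enzymes such as mannanases cut within a chain. Beta-galactosidases of family 35 remove galactose, for example from pectic galactan. Beta-xylosidases and beta-glucosidases of family 3 remove xylose from xylan-type chains and glucose from glucan-type chains, respectively. In Arabidopsis, MANNANASE7 takes part in the opening of the silique, the dry fruit.

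EgBXL2 was the only member with a sequence in the sources used here, the primer pair by which the study measured it by quantitative PCR. The pair is shown as the study listed it for this contig. Whether it separates EgBXL2 from other beta-xylosidase transcripts was not checked here. Both are written 5′ to 3′, in lower case throughout because no part of a primer is singled out:
Beta-xylo2_S: tccaacatccacgcccgc
Beta-xylo2_AS: ccctgcctggccgccgtt
Each primer was 18 bases long, with 66.7% G and C in the sense primer and 77.8% in the antisense primer.

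The ethylene libraries were sequenced by pyrosequencing and held between 26560 reads (AZ30 at 0 h) and 302391 reads (P150 at 6 h) in contigs. Levels are given as reads per 100000 contig reads, where 1 read was worth between 0.331 and 3.77 depending on the library. With 1 library per condition, the two-sided Audic and Claverie test compares the reads of 2 libraries and covers counting error only, and the exact 95% intervals given here do the same. Its p, here called exact, doubles the smaller tail, with the observed count in the lower tail only. For an increase this gives a smaller p than counting it in both tails, mostly at low counts. Some calls below therefore stand beside an interval that includes 1. A comparison over time was called at p under 0.01 and one between tissues at p under 0.05. For orientation, the polygalacturonases EgPG4, EgPGAZ1 and EgPGAZ2 were read as well, of which EgPG4 is also expressed in ripening mesocarp and is not specific to the AZ. The study had kept all of them for a difference of AZ150 from P150 and AZ30 in these same libraries. Their levels are therefore a description and no independent check of the tissues. EgPG4 reached 312 reads per 100000 in AZ150 at 9 h and had 0 reads in all 4 P150 libraries, where EgPGAZ1 had at most 2 reads and EgPGAZ2 at most 1. In AZ30 at 9 h EgPG4 was at 46.6 and EgPGAZ1 at 25.2, so this library held polygalacturonase transcripts as well.

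The first question was how each enzyme changed over the ethylene treatment. All calls among the members against 0 h were increases. In AZ150, 1, 3 and 4 of the 4 members were called higher at 3, 6 and 9 h than at 0 h. Over all contigs with a read in either library, 1.93%, 1.93% and 1.98% were called higher at the same times. The study had picked these members for a change in AZ150, so their AZ150 counts are a description. In P150, 1, 2 and 3 of 4 members were called higher, against 2.46%, 2.85% and 3.07% of all contigs. In AZ30, 0, 0 and 2 of 4 were called higher, against 0.523%, 0.324% and 0.838% of all contigs. No member was called lower, and the shares of all contigs called lower were 0.929%, 1.36% and 2.61% in AZ150. The same shares were 2.31%, 4.27% and 0.551% for P150, and 2.22%, 2.52% and 6.22% for AZ30. Many contigs had too few reads to be called. Among contigs with at least 50 reads in all libraries together, the shares called higher at 9 h were 7.97% in AZ150, 7.88% in P150 and 3.74% in AZ30.

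**Figure D1:**
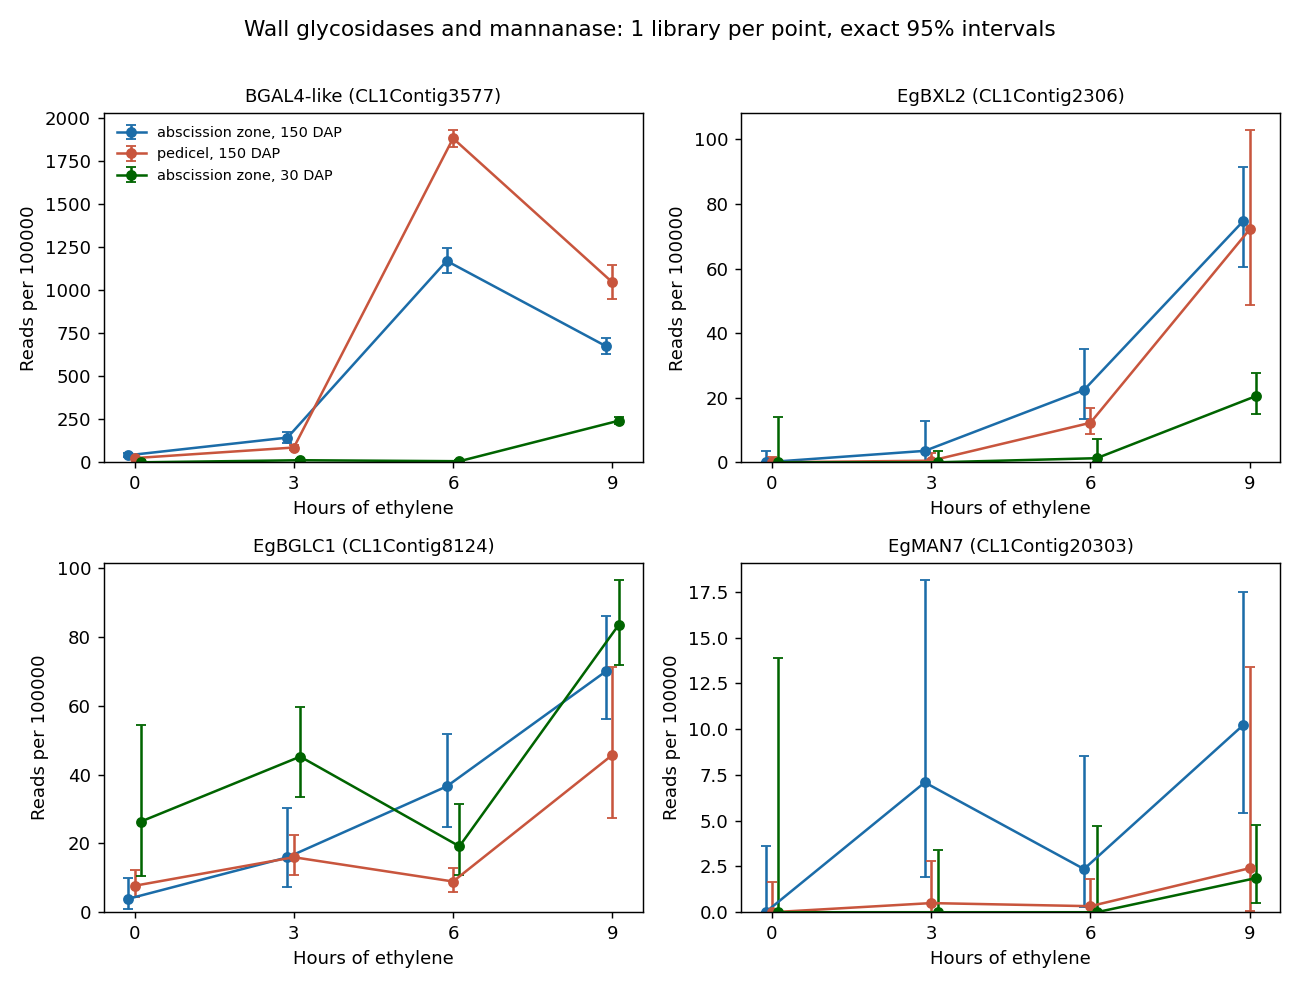
Reads per 100000 contig reads (vertical axes, linear from 0, a scale of its own for each member) against hours of ethylene for the 4 members, in the ripe abscission zone (blue), ripe pedicel (red) and immature abscission zone (green). Each point is 1 library and bars are exact 95% intervals for counting error; the beta-galactosidase was highest at 6 h in both ripe tissues, whereas EgBXL2 was highest at 9 h in all 3 tissues.

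The BGAL4-like beta-galactosidase had the most reads of the 4, 8861 in all, and was highest at 6 h in both ripe tissues. In AZ150 its level was 40.9, 144, 1170.0 and 675 reads per 100000 at 0, 3, 6 and 9 h. In P150 it was 24.4, 85.9, 1882 and 1046. In AZ30 it was 0, 12.0, 6.38 and 242. Both ripe tissues thus went through a steep climb between 3 and 6 h and were lower again at 9 h. Before 9 h, AZ30 was at no more than 12.0, on 13 reads at 3 h and 5 at 6 h. With 992 reads in AZ150 and 5691 reads in P150 at 6 h, it had more reads than any other contig in either library (reads per contig, without correction for length). It made up 1.17% of the contig reads of AZ150 at 6 h and 1.88% of those of P150.

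The increase over 0 h was called at every time in both ripe tissues. In AZ150 the ratio to 0 h was 3.51 at 3 h (95% interval 2.39 to 5.22), 28.6 at 6 h (21.0 to 39.9) and 16.5 at 9 h (12.1 to 23.0). In P150 it was 3.52 at 3 h (2.58 to 4.87), 77.1 at 6 h (59.0 to 103) and 42.8 at 9 h (32.2 to 57.9). The ratio at 3 h was therefore alike in AZ150 and P150, and at 6 h the intervals of both ripe tissues did not overlap. From 6 to 9 h the level fell to 0.577 of its value in AZ150 (0.526 to 0.633) and to 0.556 in P150 (0.503 to 0.613). Both steps were called, where 1.79% and 0.410% of all contigs were called lower at 9 h than at 6 h. In AZ30 the 3 h and 6 h libraries were not called against 0 h (exact p = 0.0930 and 0.347). The 0 h library was the shallowest and had 0 reads, for which a limit of 3 reads, worth 11.3, was used (exact 95% upper limit 13.9). At 9 h in AZ30 the level was 21.4 times the limit of 11.3 (exact p = 9.61e-27, Benjamini-Hochberg adjusted p = 1.35e-23 over all contigs). The exact 95% interval of the ratio to 0 h began at 17.3.

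EgBXL2 had 0 reads in all 3 untreated libraries. In AZ150 its level was 0, 3.55, 22.4 and 74.7 reads per 100000 at 0, 3, 6 and 9 h. In P150 it was 0, 0.499, 12.2 and 72.1, and in AZ30 it was 0, 0, 1.28 and 20.5. Each tissue had its highest level at 9 h, and the order of the tissues at 6 h was AZ150, P150, AZ30. Against the limit of 3 reads in the 0 h library, AZ150 was 7.66-fold higher at 6 h (exact p = 2.58e-07) and 25.6-fold higher at 9 h (p = 4.30e-25). P150 was 9.02-fold higher than its limit at 6 h (exact p = 1.75e-09) and 53.2-fold higher at 9 h (p = 3.06e-25). The exact 95% intervals of the ratios to 0 h began at 5.65 and 20.4 in AZ150 and at 6.97 and 40.6 in P150. The steps from 6 to 9 h were called as well, with ratios of 3.33 in AZ150 (2.02 to 5.78), 5.90 in P150 (3.52 to 9.81) and 16.1 in AZ30 (2.74 to 649, on 1 read at 6 h). Of all contigs, 1.01%, 2.71% and 1.71% were called higher at 9 h than at 6 h in these tissues.

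In AZ30 the increase of EgBXL2 from 0 to 9 h just missed the call (exact p = 0.0105). Its 44 reads at 9 h gave 1.82 times the limit of the 0 h library, which was the shallowest, and the exact 95% interval of the ratio began at 1.42. With library sizes scaled by the trimmed mean of M values (TMM), it was called (exact p = 2.26e-05), and so it was with the reads of its second contig added (p = 0.00257).

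EgBGLC1 differed from the other members in having reads in every library. In AZ150 its level was 3.90, 16.0, 36.6 and 70.0 reads per 100000. In P150 it was 7.69, 16.0, 8.93 and 45.7. In AZ30 it was 26.4, 45.2, 19.2 and 83.5. AZ150 was higher at each later time, whereas P150 and AZ30 were low again at 6 h before their highest level at 9 h. The AZ150 ratio to 0 h was 4.09 at 3 h (1.14 to 18.2, exact p = 0.0135, not called), 9.38 at 6 h (3.32 to 36.6) and 18.0 at 9 h (6.77 to 67.3). At 9 h the ratio was 5.94 in P150 (2.92 to 12.2) and 3.17 in AZ30 (1.51 to 7.99), both called. At 6 h it was 1.16 in P150 (0.610 to 2.27) and 0.727 in AZ30 (0.279 to 2.11), and neither was called. The drop in AZ30 from 45.2 at 3 h to 19.2 at 6 h was called (ratio 0.424, 0.221 to 0.768, exact p = 0.00230, beside 1.45% of all contigs called lower), and the one in P150 was not (ratio 0.559, 0.322 to 0.963, p = 0.0248).

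EgMAN7 had the fewest reads, 26 in all, of which 19 were in AZ150. In AZ150 its level was 0, 7.09, 2.36 and 10.2 reads per 100000 at 0, 3, 6 and 9 h. In P150 it was 0, 0.499, 0.331 and 2.40, each a single read after 0 h. In AZ30 it was 0, 0, 0 and 1.87. Only the 9 h library of AZ150, with 13 reads, was called against 0 h among the 9 treated libraries (exact p = 5.05e-04, adjusted p = 0.0244). Its level was 3.50 times the limit, and the exact 95% interval of the ratio began at 2.46. At this depth the exact 95% upper limits in AZ30 were 13.9, 3.40 and 4.71 at 0, 3 and 6 h, so an absence of EgMAN7 there was not shown.

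A second contig existed for 2 of the members, with the same reference transcript but its own reads. For EgBXL2 this was CL1Contig2278, at 0, 0, 4.72 and 24.4 reads per 100000 in AZ150, at 0, 0, 4.96 and 21.6 in P150 and at 0, 0.923, 1.28 and 5.60 in AZ30. It followed the course of the first contig, and the share of the pair's reads that fell on the first contig was 76.8% in AZ150, 73.9% in P150 and 76.3% in AZ30. The best Arabidopsis match of the second contig was BXL1, that of the first an unnamed family 3 protein. For EgMAN7 the second contig was CL1Contig8313, at 0, 14.2, 5.90 and 16.5 in AZ150. It was at 0, 1.50, 2.65 and 4.81 in P150 and at 0, 1.85, 0 and 1.87 in AZ30. It held 53 of the pair's 79 reads, and in AZ150 it too had its highest level at 9 h. The step from 3 to 6 h in AZ150 was not called for the first contig (exact p = 0.192), the second (0.116) or their sum (0.0416). With both EgMAN7 contigs summed, AZ150 was called against 0 h at all 3 times (exact p = 2.82e-06, 0.00351 and 2.03e-09) and P150 at 6 and 9 h (p = 0.00827 and 0.00126, on 9 and 3 reads), while AZ30 was not called at any time.

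**Figure D2:**
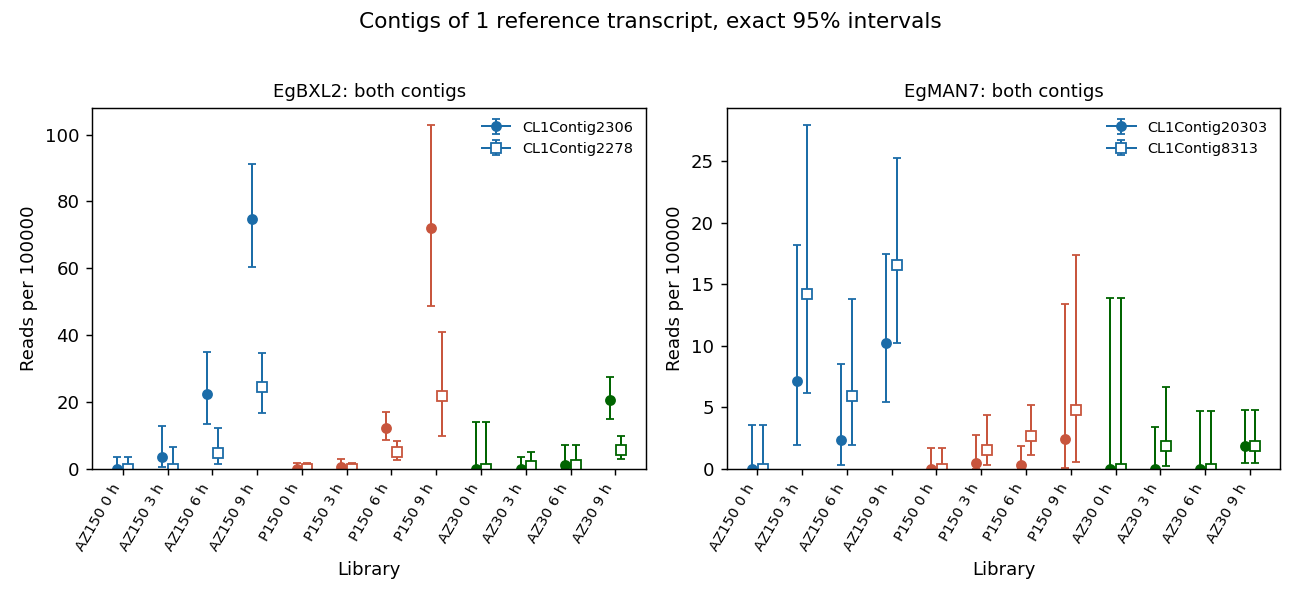
Reads per 100000 contig reads (vertical axes, linear from 0) in each of the 12 libraries for the 2 contigs of EgBXL2 and the 2 contigs of EgMAN7, filled circles for the member and open squares for the second contig, blue for AZ150, red for P150 and green for AZ30. Bars are exact 95% intervals for counting error; both EgBXL2 contigs were highest at 9 h in each tissue, and EgMAN7 had its 3 highest summed levels in AZ150 at 9, 3 and 6 h.

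The order of the 12 levels differed between members. For the BGAL4-like contig the 4 ripe libraries of 6 and 9 h came first, followed by AZ30 at 9 h, and the 3 remaining AZ30 libraries came last. Neighbours in that order were within counting error for AZ150 at 6 h and P150 at 9 h (exact p = 0.0514) and among the 3 lowest AZ30 libraries (p = 0.248 and 0.347). For EgBXL2 the order was AZ150 and P150 at 9 h (exact p = 0.923 between them), then AZ150 at 6 h and AZ30 at 9 h (p = 0.692), then P150 at 6 h. For EgBGLC1 the 3 libraries of 9 h came first, led by AZ30, and no pair of neighbours in its order had a p under 0.05. For EgMAN7 the order began with AZ150 at 9 and 3 h, and again no neighbours differed at that level.

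The second question was whether the tissues differed at matched times. Of the 16 comparisons of AZ150 with P150 over members and times, 7 were called, and in 2 of them, both for the BGAL4-like contig, P150 was the higher tissue. The study's own screen used differences of AZ150 from P150 and AZ30, so for EgBXL2, EgBGLC1 and EgMAN7 these calls are not independent evidence. In detail, 1, 2, 2 and 0 members were called higher in AZ150 than in P150 at 0, 3, 6 and 9 h, where 4.51%, 5.57%, 7.20% and 1.25% of all contigs were. At both 6 and 9 h 1 member was called lower, against 2.08% and 5.80% of all contigs, and 0 were at 0 and 3 h, against 1.88% and 1.04%. Of contigs with at least 50 reads in all, 9.43%, 9.14%, 13.9% and 4.48% were higher in AZ150 at 0, 3, 6 and 9 h. The shares lower were 7.35%, 4.87%, 8.79% and 10.4%. The BGAL4-like contig changed sides: its ratio of AZ150 to P150 was 1.68 at 0 h (1.09 to 2.56), 1.67 at 3 h (1.27 to 2.19), 0.622 at 6 h (0.581 to 0.665) and 0.645 at 9 h (0.574 to 0.726). With TMM sizes the calls at 0 and 3 h were lost (exact p = 0.0802 and 0.138) and that at 6 h was kept. At 9 h the log2 difference shrank to -0.17 with TMM sizes (exact p = 0.0466).

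EgBXL2 was at the same level in AZ150 and P150 at 9 h within counting error, with a ratio of 1.04 (0.681 to 1.62). At 6 h its ratio was 1.83 (0.995 to 3.27, which includes 1, exact p = 0.0312), a call that was lost with TMM sizes (p = 0.338) and with the second contig added (p = 0.0648). EgBGLC1 was 4.09-fold higher in AZ150 than in P150 at 6 h (2.37 to 7.13, exact p = 1.24e-07). At 9 h its ratio was 1.53 (0.926 to 2.66, exact p = 0.0940), which became a call with TMM sizes (p = 0.00184). EgMAN7 was higher in AZ150 at 3 h on 4 reads against 1 (ratio 14.2, 1.41 to 699, exact p = 0.00503). With both contigs summed, AZ150 was above P150 at 3, 6 and 9 h, with ratios of 10.6 (3.23 to 45.3), 2.77 (0.878 to 8.37) and 3.71 (1.17 to 18.9), each called although the 6 h interval includes 1.

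Between AZ150 and AZ30, 11 of 16 comparisons were called. AZ150 was the higher tissue for 1, 2, 3 and 3 members at 0, 3, 6 and 9 h, against 1.21%, 4.87%, 4.29% and 5.10% of all contigs, and the lower one for 1 member at 0 and 3 h, against 7.44% and 2.30%. At 6 and 9 h 0 members were lower, against 4.96% and 3.32%. Of contigs with at least 50 reads in all, 4.63%, 13.2%, 13.8% and 13.4% were higher in AZ150 at 0, 3, 6 and 9 h. The shares lower were 9.50%, 7.77%, 10.7% and 11.7%. The BGAL4-like contig was higher in AZ150 at each time, by 3.62-fold over the limit of AZ30 at 0 h, where AZ30 had 0 reads. At 3 h it was 12.0-fold higher (6.62 to 23.4), at 6 h 183-fold (78.3 to 566) and at 9 h 2.79-fold (2.50 to 3.12). EgBXL2 was 17.5-fold higher at 6 h (2.79 to 729, on 1 read in AZ30) and 3.64-fold higher at 9 h (2.52 to 5.33). EgMAN7 was 5.48-fold higher at 9 h (1.69 to 23.1), on 13 reads against 4.

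EgBGLC1 went the other way at the early times. Its ratio of AZ150 to AZ30 was 0.148 at 0 h (0.0318 to 0.582, exact p = 0.00142) and 0.353 at 3 h (0.152 to 0.726, p = 0.00190). It was 1.91 at 6 h (1.00 to 3.80, which includes 1, exact p = 0.0373) and 0.839 at 9 h (0.643 to 1.09, p = 0.179). Thinning all libraries to the shallowest turned the 6 h difference to a log2 value of -0.16 (exact p = 0.815). The immature AZ thus held more EgBGLC1 reads before treatment and at 3 h, and no difference was called at 9 h. With TMM sizes AZ30 was called the higher tissue at 9 h too (exact p = 0.00609).

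P150 and AZ30, which the screen did not compare with each other, gave 10 calls of 16. The BGAL4-like contig was higher in P150 at every time, by 7.16-fold at 3 h (4.08 to 13.7), 295-fold at 6 h (126 to 908) and 4.33-fold at 9 h (3.80 to 4.93). EgBXL2 was higher in P150 at 6 h (ratio 9.58, 1.62 to 389) and at 9 h (3.52, 2.13 to 5.72). EgBGLC1 was lower in P150 at all 4 times, with ratios of 0.292, 0.353, 0.466 and 0.547, of which those at 0 and 6 h were not called with TMM sizes (exact p = 0.177 and 0.272). Members called higher in P150 numbered 1, 1, 2 and 2 at 0, 3, 6 and 9 h, where 1.04%, 2.99%, 3.53% and 6.20% of all contigs were called. The 1 member called lower at each time, EgBGLC1, stood against 11.8%, 6.17%, 12.0% and 1.36% of contigs.

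To set these differences against more than counting error, the 12 libraries were fitted together with edgeR's quasi-likelihood test, with tissue and time as terms. The 4 times were taken as repeats of a tissue. The spread so estimated therefore also holds changes over time that differed between tissues, and is not one between replicates. The fit took the 10762 contigs that reached 3 reads in 4 or more libraries, which EgMAN7 did not. SE in the edgeR fits was derived as the log2 difference divided by the square root of the test's F value. The BGAL4-like contig was 3.46 log2 units higher in AZ150 than in AZ30 (SE 0.59, adjusted p = 8.29e-07) and 3.45 higher in P150 than in AZ30 (SE 0.59, adjusted p = 1.03e-06). EgBXL2 was 2.54 higher in AZ150 than in AZ30 (SE 0.69, edgeR adjusted p = 0.00911). These were 2 of 3 members called for AZ150 against AZ30, beside 4.36% of all contigs, and 1 of 3 for P150 against AZ30, beside 4.73%. The study's screen had used AZ150 against AZ30 in these libraries, so the EgBXL2 call is not independent evidence. The EgBXL2 call was lost without the 3 h libraries (adjusted p = 0.0588), and without the 6 h or the 9 h libraries the contig no longer passed the filter. Over the time course EgBGLC1 was 0.51 lower in AZ150 than in AZ30 (log2 -0.51, SE 0.49) and not called.

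Between AZ150 and P150 the same fit called 0 of 3 members, beside 0.678% of all contigs. The difference was 0.01 log2 units for the BGAL4-like contig (SE 0.45), 0.81 for EgBXL2 (SE 0.61) and 0.74 for EgBGLC1 (SE 0.49). The unadjusted p was above 0.05 for each (0.976, 0.179 and 0.129), and DESeq2 called none of them. This fit compares means over the 4 times, so it does not test the calls at single times given above, which cover counting error only. With both of its contigs summed, EgMAN7 passed the filter and was 3.14 log2 units higher in AZ150 than in AZ30 (SE 0.74, edgeR adjusted p = 0.00147), and 2.19 higher than in P150 (SE 0.68, adjusted p = 0.125). This summing for the edgeR fits was chosen after the data had been seen. EgMAN7 had also been picked by the study's screen in these libraries, so its values here are a description.

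A further fit compared the 3 untreated libraries with the 9 treated ones, with tissue as a block. The 3, 6 and 9 h libraries were taken as repeats. The BGAL4-like contig was 5.01 log2 units higher in treated libraries (SE 1.12, edgeR adjusted p = 0.00970), and it was above the 0 h library of its own tissue in 9 of 9. EgBXL2 was 8.02 higher (SE 1.77, adjusted p = 0.00956), above its 0 h library in 8 of 9 and equal in 1. Since it had 0 reads in every untreated library, that value depends on the prior count and is no bound. For the same reason EgBXL2 passed the filter of 3 reads in 4 libraries only through treated libraries, so its adjusted p is no test of treatment. EgBGLC1 was 2.02 higher (SE 0.64, adjusted p = 0.0961) and not called, with 8 of 9 libraries above 0 h. So 2 of 3 members were called, EgBXL2 only by way of that filter, beside 1.58% of all contigs called higher. The study had picked the members for a change in AZ150, so these calls are a description and not independent evidence. TMM scaling shifted the median contig by 0.21 log2 units in this fit, against 0.00 with library totals. Without AZ150 or without P150 edgeR called no contig at all, with 693 and 634 contigs at an unadjusted p under 0.05, and the adjusted p of the BGAL4-like contig was 0.216 and 0.289. EgBXL2 did not reach the minimum of reads in either of those fits, nor in those without the 6 h or the 9 h libraries. EgBGLC1 was called without the 6 h libraries (edgeR adjusted p = 0.0154).

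With an effect of treatment for each tissue, no contig was called in any tissue by edgeR, although 727, 674 and 650 contigs had an unadjusted p under 0.05 in AZ150, P150 and AZ30. DESeq2 called 13, 17 and 1. The difference in effect between AZ150 and P150 was -1.23 log2 units for the BGAL4-like contig (SE 2.17) and 2.16 for EgBGLC1 (SE 1.53). That between AZ150 and AZ30 was -5.80 (SE 5.77) and 2.08 (SE 1.58), and none was called. The median over all contigs was 0.10 for the difference from P150 but -1.28 for that from AZ30, where the treated libraries lay 1.66 above the untreated one in the median contig, so the AZ30 values are to be read against that shift. For the difference from P150, 212 contigs had an unadjusted p under 0.05, and 444 for the difference from AZ30, with 0 called by DESeq2 in both. A difference in response between tissues was therefore not shown for any member tested.

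In the field, the question was whether the same loci changed as fruit approached natural shedding. The values are RPKM (reads scaled to the transcript's length and to the mapped reads of the library), summed over the transcripts of a locus. With 1 library per age there was no test, and a locus was counted as higher or lower where it changed at least 2-fold on RPKM + 0.1 and reached an RPKM of 1. EgBXL2 was at 7.76, 50.3 and 429 RPKM at 30, 120 and 160 days, a ratio of 55.3 between 160 and 30 days. EgMAN7 was at 0.429, 16.8 and 88.8, a ratio of 207. Both loci went up in each interval. EgBXL2 ranked 158th of 39464 loci at 160 days, after 13349th at 30 days, where each transcript without a matched locus is counted as a locus. EgMAN7 moved from 29869th to 1055th. EgPG4, a polygalacturonase that is also expressed in ripening mesocarp, was at 4.83, 35.9 and 1938 RPKM in the same libraries, so its level there is no measure of AZ cells alone. The part of neighbouring mesocarp in the field values was not tested.

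The BGAL4-like locus behaved differently from its contig in the ethylene libraries. It was at 19.9, 7.09 and 22.1 RPKM at 30, 120 and 160 days, and ranked 4500th at 160 days. Its annotated transcripts did not move together: the one matching the contig was at 10.3, 7.03 and 22.0 RPKM, and the other at 9.60, 0.0579 and 0.114. Summed, the locus was lower at 120 than at 30 days (log2 -1.48), higher at 160 than at 120 days (log2 1.63) and within 2-fold between 30 and 160 days (log2 0.15). The transcript matching the contig taken alone was within 2-fold between 30 and 120 days (log2 -0.55) and higher at 160 than at 30 days (log2 1.09). EgBGLC1 in the field was not analysed here.

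Of the 3 member loci, 2 were higher and 1 lower at 120 than at 30 days, beside 11.0% and 19.4% of all loci. None was lower at 160 days, beside 18.3% of loci lower than at 120 days and 31.5% lower than at 30 days. All 3 were higher at 160 than at 120 days, beside 5.61%, and 2 of 3 were higher at 160 than at 30 days, beside 9.90%. Among loci with an RPKM of at least 1 at either age, 15.4% were higher and 27.1% lower at 120 than at 30 days. At 160 days 8.91% of such loci were higher and 29.0% lower than at 120 days, and 13.9% higher and 44.1% lower than at 30 days. The study had also used these libraries to pick EgBXL2 and EgMAN7. The median log2 difference of the 3 loci was 5.77 between 30 and 160 days, against -0.76 over the 28170 loci with an RPKM of at least 1 at either age. Rescaling the libraries by their median ratio raised that difference by 0.70 for every locus, and with it 6874 loci were higher and 8167 lower in place of 3907 and 12415. From 120 to 160 days the numbers were 4198 and 3878 in place of 2214 and 7213. None of the calls of member loci depended on this rescaling.

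**Figure D3:**
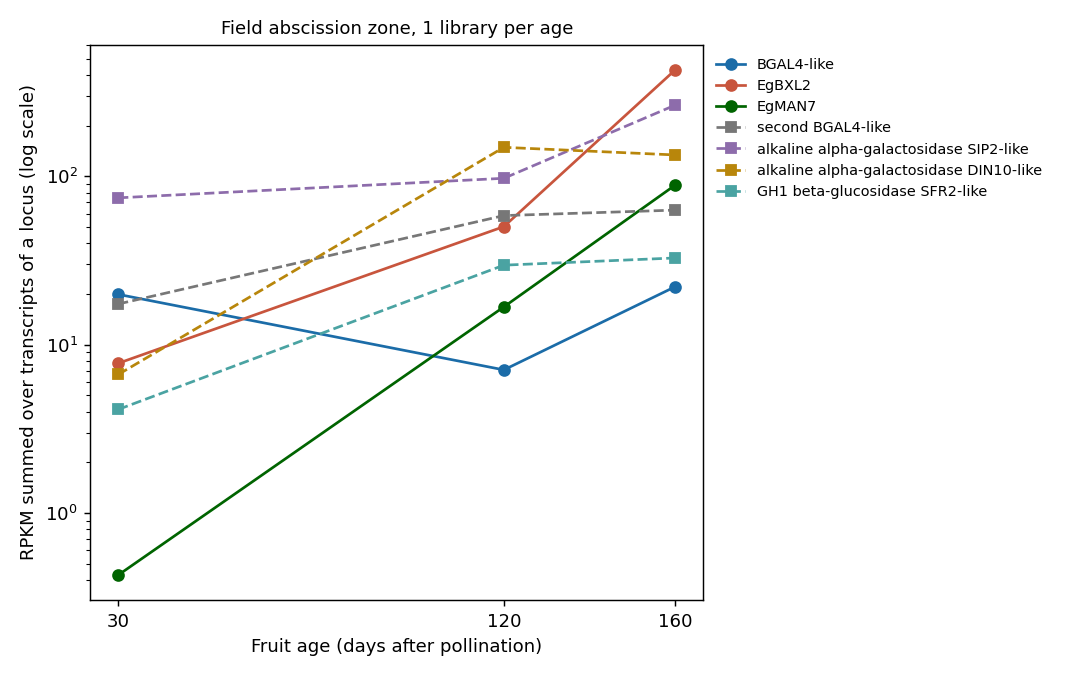
RPKM summed over the transcripts of a locus (vertical axis, log scale) against fruit age in days after pollination for 3 member loci (circles, solid lines) and 4 related loci (squares, dashed lines). Each point is 1 library without an error estimate; EgBXL2 and EgMAN7 climbed at both steps to 429 and 88.8 RPKM at 160 days, and the BGAL4-like locus dipped to 7.09 at 120 days.

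Other contigs annotated as glycosidases in the study's tables were taken for comparison. Besides the second contigs of EgBXL2 and EgMAN7 these were a second BGAL4-like beta-galactosidase (CL1Contig8666, LOC105058345), alkaline alpha-galactosidases similar to DIN10 (CL1Contig1914, LOC105056490) and SIP2 (CL1Contig13863, LOC105033561), and a family 1 beta-glucosidase similar to SFR2 (CL1Contig16834, LOC105039984). In Arabidopsis, SFR2 acts on membrane galactolipids rather than on the wall, and DIN10 and SIP2 belong to a family that splits raffinose-type sugars. All 6 had been picked by the study for a change in AZ150. In P150, 2, 3 and 4 of the 6 were called higher at 3, 6 and 9 h and in AZ30 0, 0 and 1, with no call lower, to be read against the shares of all contigs given for the members.

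The second beta-galactosidase shared the 6 h maximum of the BGAL4-like contig in P150, with fewer reads. It was at 7.80, 30.1, 22.4 and 20.4 reads per 100000 in AZ150, at 4.52, 4.99, 40.7 and 24.0 in P150, and at 0, 12.0, 11.5 and 23.3 in AZ30. Reads of such close relatives could have been split between contigs during assembly. The DIN10-like contig was also highest at 6 h in both ripe tissues, at 17.5, 39.0, 169 and 73.9 in AZ150 and at 12.7, 46.9, 124 and 26.4 in P150. In AZ30 it stayed at 3.77, 5.54, 6.38 and 15.4. In the field it was at 6.66, 149 and 134 RPKM, so that, unlike EgBXL2 and EgMAN7, it was already at its highest at 120 days. The second beta-galactosidase locus was at 17.5, 58.5 and 63.1 RPKM, and the SFR2-like locus at 4.13, 29.7 and 32.8.

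The SIP2-like contig was at 7.80, 26.6, 41.3 and 44.0 reads per 100000 in AZ150 and at 9.04, 24.0, 16.2 and 40.9 in P150. In AZ30 it began at 30.1 and was at 10.2, 11.5 and 21.0 after treatment. Like EgBGLC1, it was therefore highest in AZ30 among the untreated libraries, with a ratio of AZ150 to AZ30 of 0.259 at 0 h (0.0847 to 0.791, exact p = 0.00631) on 8 reads in each, a call lost with TMM sizes (p = 0.0852). In the field it was at 74.6, 97.5 and 265 RPKM. Over the 4 related loci 3 were higher at 120 than at 30 days and 1 was higher at 160 than at 120 days, and all 4 were higher at 160 than at 30 days, beside 11.0%, 5.61% and 9.90% of all loci.

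**Figure D4:**
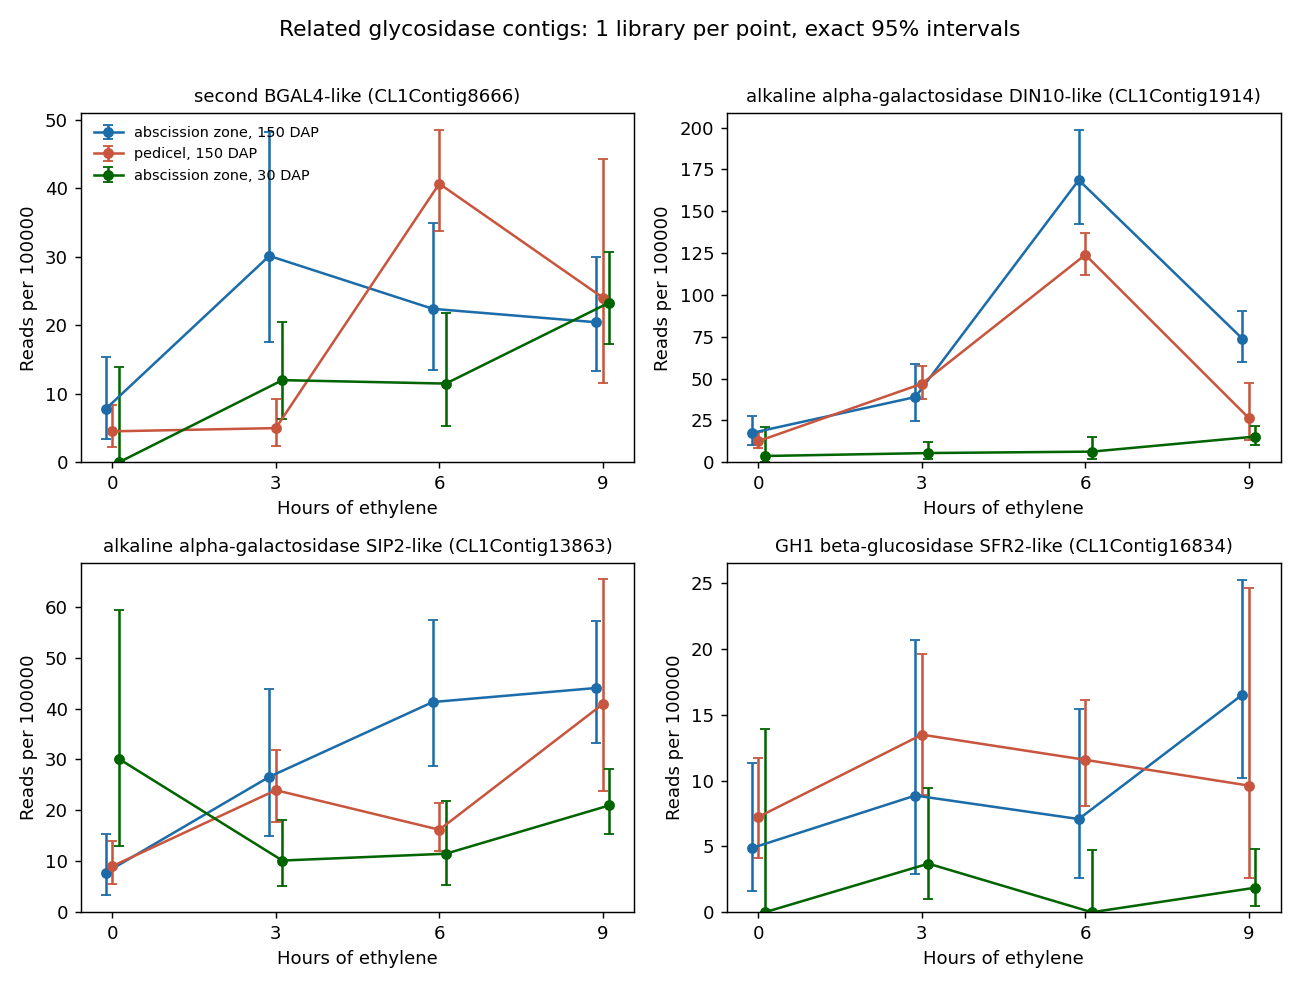
Reads per 100000 contig reads (vertical axes, linear from 0) against hours of ethylene for 4 related glycosidase contigs, coloured by tissue as in the plot of the members. Each point is 1 library and bars are exact 95% intervals for counting error; the DIN10-like contig peaked at 6 h in both ripe tissues, at 169 and 124, and the SIP2-like contig had its highest untreated level, 30.1, in the immature abscission zone.

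Lastly, contigs with a pattern like that of each member were sought over the 12 libraries by Pearson correlation of log2(reads per 100000 + 1), among 6353 contigs with at least 50 reads in all. The points share depth and library effects, so r is a description. Names came only from the study's lists of contigs that changed in AZ150, so the named contigs had been picked in these same libraries. The members were alike to different degrees: r was 0.82 between the BGAL4-like contig and EgBXL2, 0.75 between EgBXL2 and EgMAN7, and 0.20 between the BGAL4-like contig and EgBGLC1. Nearest to the BGAL4-like contig among named contigs were a band 7 protein (CL1Contig12596, r = 0.96), a DnaJ chaperone similar to J8 (CL1Contig11223, r = 0.95) and a neutral invertase (CL1Contig3345, r = 0.95). Invertases split sucrose into glucose and fructose. The invertase contig was at 11.7, 12.4, 69.6 and 40.9 reads per 100000 in AZ150 and at 5.88, 20.0, 57.9 and 31.3 in P150, and so had the same high 6 h levels.

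Nearest to EgBXL2 were a late embryogenesis abundant-related protein (CL1Contig7943, r = 0.94), an inositol-3-phosphate synthase (CL1Contig5135, r = 0.93) and an F-box protein similar to VFB3 (CL1Contig21874, r = 0.92). Its own second contig had r = 0.94. Nearest to EgBGLC1 were an Es2-type DGCR14-related protein (CL1Contig12071, r = 0.87), a family 29 glycosyltransferase (CL1Contig10808, r = 0.82) and a RING finger protein (CL1Contig9785, r = 0.81), a lower likeness than for the other members. Nearest to EgMAN7 were a laccase (CL1Contig10326, r = 0.94), the AZ polygalacturonase EgPGAZ1 (CL1Contig6920, r = 0.93) and a fructose-bisphosphate aldolase (CL1Contig16770, r = 0.91). EgMAN7 itself had 26 reads, under the minimum of 50 set for the contigs compared. Its r values therefore rest on few reads, and their rank against those of EgBGLC1 carries little weight. The laccase was at 0.975, 44.3, 73.1 and 158 reads per 100000 in AZ150 and at most 26.4 in P150 and 29.8 in AZ30. EgPGAZ1 was at 0, 49.6, 28.3 and 206 in AZ150, and its step from 3 to 6 h was not called (exact p = 0.0418).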

How the data were processed

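Tissues were compared in 12 ethylene libraries (Roche pyrosequencing) and 3 field libraries (Illumina). The deposited ethylene values are raw read counts per contig of the authors' de novo assembly. The deposited field values are RPKM, although their columns are headed as counts. For these the authors used cutadapt for trimming, BWA-MEM against the EG5 predicted transcripts and SAMtools (tool versions: not stated). In the count table of P150 at 9 h, 17 columns that matched no sample were left aside. The study's methods give the pedicel as immature, and the labels as ripe; the labels were followed.

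Groups came from the labels, with 1 library per condition. Reads of 2 libraries were compared by the exact two-sided Audic and Claverie test (scipy 1.17.1), checked on simulated data. A count of 0 was replaced by a limit of 3 reads for fold changes, and intervals cover counting error only. All 12 libraries were fitted with edgeR 4.0.16 (TMM, Benjamini-Hochberg over all contigs), which treats the 4 times as repeats of a tissue, and DESeq2 1.42.0 was an alternative. Field transcripts were summed per locus for the 23528 of 44360 matched to the RefSeq gene table, which holds no product names, so planned lists by product name (other glycosidase loci, mesocarp markers) were not made. Contigs named are the 4 members, 6 related contigs and the 3 annotated contigs most like each member. The members and lists were chosen with earlier results of these data known. Alternatives covered scaling, test tails, thinning to 26560 reads, multiple testing, filters, pseudocounts, summed contigs and left-out libraries.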

Additional observations from a re-analysis of the deposited data

Results flagged for a closer look

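The SIP2-like alkaline alpha-galactosidase (CL1Contig13863) stood out because all 3 treated libraries lay above 0 h in AZ150 and in P150 and below 0 h in AZ30. In AZ30 it was at 30.1 reads per 100000 at 0 h, on 8 reads in the shallowest library, and at 10.2, 11.5 and 21.0 after treatment. None of the 3 was called against 0 h (exact p = 0.0179, 0.0421 and 0.271), and with TMM sizes 1 of them lay above 0 h. The difference in effect between AZ150 and AZ30 was 2.92 log2 units by edgeR (adjusted p = 0.855) and was not called, and that between P150 and AZ30 was not tested.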

How the results depend on the processing

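Values of single contigs or loci, and edgeR's counts of calls over all contigs, were recomputed under each alternative. Of these, 725 kept their direction and side of the threshold or, for counts, stayed similar. Another 64 lost a call, 16 gained one, 23 moved and 13 reversed. The reversals were log2 differences, of which EgBGLC1 between AZ150 and AZ30 at 6 h and the DIN10-like contig had been calls. For EgBGLC1 in AZ30 at 6 h against 0 h the value became 0.12 with TMM sizes and 0.34 after thinning, and in P150 at 6 h it became -0.36 after thinning. Between AZ150 and P150 at 3 h EgBGLC1 became -0.081 with totals of all reads, -0.40 with TMM sizes and -0.36 after thinning. Thinning also turned EgBXL2 between AZ150 and P150 at 9 h to -0.30 and EgBGLC1 between AZ150 and AZ30 at 6 h to -0.16. The DIN10-like contig between AZ150 and P150 at 6 h became -0.061 with TMM sizes. By edgeR the BGAL4-like difference between AZ150 and P150 was -0.16 with contigs of 1 read in 4 libraries admitted, and ran from -0.28 to 0.41 with a time left out. The difference in effect of EgBXL2 between AZ150 and P150 was -0.78 by DESeq2. The cause of these changes was not tested.

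In AZ30, 2 member comparisons with 0 h were called. This became 4 with TMM sizes, 1 after thinning and 1 with Bonferroni correction, and the related contigs went from 1 to 2 with TMM sizes. Thinning to the shallowest library left 3, 7 and 4 tissue calls in place of 7, 11 and 10, with fewer reads behind each. By edgeR, members called between P150 and AZ30 went from 1 to 2 with library totals, and between AZ150 and AZ30 from 2 to 1 with the looser filter and to between 1 and 2 with a time left out. For treated against untreated libraries they ranged from 0 to 2 with a time or tissue left out. With the looser filter 1 member was called for treatment within AZ150 and 1 within P150. Over all contigs, the looser filter gave 39 calls between AZ150 and P150 in place of 73, and 297 between AZ150 and AZ30 in place of 469. It gave 22 for treatment within AZ150, 8 within P150 and 1 for the difference in effect between AZ150 and AZ30, in place of 0. With a time left out the tissue calls were 28 to 47 (AZ150 and P150), 215 to 362 (AZ150 and AZ30) and 203 to 503 (P150 and AZ30, in place of 509). Those for treatment ranged from 0 to 294 with a time or tissue left out, in place of 207. EgMAN7 had 26 reads in all, and its 0 reads in AZ30 at 0 h have an exact 95% upper limit of 13.9 reads per 100000. No paired analysis was possible because the labels give no replicate numbers, though tissue and time were terms of the edgeR fits.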
